A study of Mus musculus with 6 samples.

Results

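Lysosomal genes were followed in cultured precursor cells of the adult mouse hippocampus after loading with human low-density lipoprotein (LDL). The 47 genes comprised 11 lysosomal proteases, 16 hydrolases of glycans and lipids with their activator proteins, 6 lysosome membrane proteins and 14 subunits of the vacuolar proton pump. They were chosen by symbol, from their known place in the lysosome, with earlier results of these data known. The array files carry transcript accessions, which were matched to RefSeq symbols. This gave 57 probes for the 47 genes. The brightest probe of each gene stood for it among the 24225 features tested.

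The precursor cells came from the dentate gyrus of male C57BL6/JRj mice 8 weeks old and grew as an attached layer. The medium held EGF and bFGF at 20 ng/ml each, in both groups, and all cultures were cells grown outside their tissue. Cell division was not examined here. One group of 3 cultures received saline and the other, also of 3 cultures, received human LDL, and RNA was taken after 48 h. The protocol in the labels gives the LDL dose as 100 ug/ml, while the sample descriptions give the volume in another unit, so the dose unit is uncertain. The labels describe 3 independent experiments from different passages. Each sample was hybridized to a 1-colour Agilent array on the same slide. Precision is limited by having 3 arrays per group.

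Lysosomes are acidic organelles in which proteins, glycans and lipids delivered by endocytosis and autophagy are broken down. LDL taken up by a cell is carried to them, its apolipoprotein is cut by cathepsins, and cholesterol is freed from its esters by acid lipase. The proton pump makes the lumen acid, with a V1 part in the cytosol that splits ATP and a membrane-bound V0 part that moves protons. The transcription factors TFEB, TFE3 and MITF are controlled by proteins at the lysosome. They are known to bind an extended E-box in the promoters of many lysosomal genes.

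All 47 genes were measured, each with its brightest probe well above background on all 6 arrays, and none passed an adjusted p of 0.05 in limma. Over all features 0.12% passed (3 higher and 26 lower after LDL). The smallest adjusted p of a lysosomal gene was 0.494, and 9 genes had an unadjusted p below 0.05, all of them higher after LDL, against 7.46% of all features in either direction and 2.96% in that one. The log2 fold change (LDL over saline) was positive for 38 of the 47 genes, compared with 43.8% of all features, and the median was 0.21 against -0.026 over all features. For 14 genes the 3 LDL arrays all lay above the 3 saline arrays, and for 1 gene, Ctsc, all lay below. Over all features, 5.82% had LDL values entirely above saline and 8.77% entirely below. In RNA of whole cultures, fewer cells of a type and less RNA per cell cannot be told apart. Without saline replicate 1 the median of the 47 was 0.12, while that of all features was 0.00091.

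**Figure D1:**
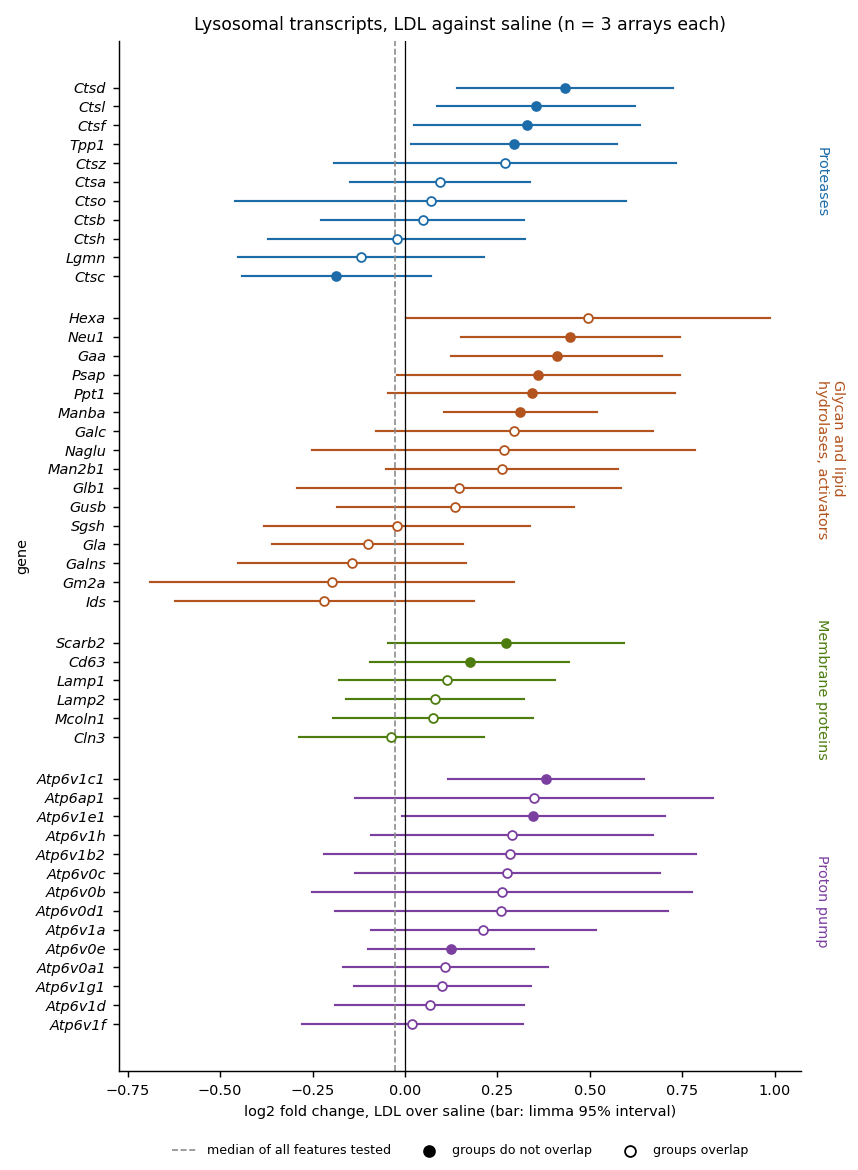
Log2 fold change of each of the 47 genes, LDL over saline (horizontal axis), by gene group, with limma's 95% interval as a bar and filled points where the arrays of the groups did not overlap. The values run from -0.22 for Ids to 0.49 for Hexa, and 14 of the 15 filled points lie on the higher side.

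Markers of the labelled cell type were present. The 8 precursor markers, among them Sox2, Nes and Pax6, were well above background on all arrays, as were 6 of the 8 neuronal markers, among them Tubb3 and Map2. The other neuronal markers, Dcx and Neurod1, were well above background on no array. Transcripts of sterol synthesis and its regulation fell, with log2 fold changes of -1.96 for Fdps (adjusted p = 0.00496), -2.15 for Hmgcs1 (adjusted p = 0.0106) and -2.02 for the regulator Insig1 (adjusted p = 0.0114). With the replicate number as a block none of these passed, with adjusted p of 0.0534, 0.0534 and 0.104 in the same order. The count of features called depended on single arrays and ran from 0 to 29 with 1 array left out. Between 55.9% and 66.9% of probes on an array were well above background. Microglia are rich in lysosomes, so their markers were followed: 7 of 12 were measured, with a median of -0.13 and none passing. Csf1r and Itgam were among those well above background on all arrays, while P2ry12, Tyrobp and Trem2 were so on no array. Of the 7 measured, 5 had negative values and 1, Tmem119, had all LDL arrays below saline (log2 fold change -0.41, adjusted p = 0.519). Medians were -0.12 for precursor, -0.071 for neuronal, -0.23 for astrocyte, -0.019 for oligodendrocyte and -0.085 for vascular markers, the last with 2 of 8 measured. Among these lists 1 gene passed in limma, Gfap of astrocytes, with a log2 fold change of 1.35 (adjusted p = 0.0225, and 0.126 with the replicate block). With the mean over probes Gfap had 0.75 (adjusted p = 0.312). The other 7 astrocyte markers had negative values. The part of Gfap in the lysosomal values was not tested.

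Promoter sequence was examined because many lysosomal genes are known to carry this regulatory element. The motifs were searched on both strands of the 250 bases before and 50 bases after the transcription start in RefSeq (build GRCm38.p6): the E-box CACGTG, and TCACGTG, which contains it and carries the flanking T preferred by the TFEB family. Promoters were found for 40 of the 47 genes. Of these, 15 held TCACGTG (37.5%), against 4.29% of 27025 genes with a promoter in the table and 6.32% of the 11904 genes that were also tested here. The shorter E-box was in 17 of the 40 (42.5%), against 8.09% of all genes and 10.9% of those also tested here. The windows below are from 4 genes with TCACGTG upstream of the start, taken in the order of their p, and show the element where it was found. Each is printed in the direction of transcription, with the matches in capitals. In Ctsd and Atp6v1a the element matches on both strands, so that 2 matches overlap.
Ctsd promoter, chr7:142387859-142387985, minus strand: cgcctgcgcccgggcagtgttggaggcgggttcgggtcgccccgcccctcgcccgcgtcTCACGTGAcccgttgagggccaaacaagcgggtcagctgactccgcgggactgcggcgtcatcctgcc
Gaa promoter, chr11:119267762-119267888, plus strand: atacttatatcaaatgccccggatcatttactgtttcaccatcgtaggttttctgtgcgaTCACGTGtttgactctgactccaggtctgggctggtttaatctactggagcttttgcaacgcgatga
Atp6v1a promoter, chr16:44139324-44139450, minus strand: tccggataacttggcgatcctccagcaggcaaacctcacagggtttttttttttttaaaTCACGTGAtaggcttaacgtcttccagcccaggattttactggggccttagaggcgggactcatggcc
Naglu promoter, chr11:101069960-101070086, plus strand: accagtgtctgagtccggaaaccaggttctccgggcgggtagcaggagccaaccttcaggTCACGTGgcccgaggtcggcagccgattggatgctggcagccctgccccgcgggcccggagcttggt

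The capitals begin 99 bases before the start in Ctsd, 141 in Gaa, 132 in Atp6v1a and 74 in Naglu. Among the 40 genes, the 15 with TCACGTG had a median log2 fold change of 0.13, with 11 positive. The 25 without it had a median of 0.27, with 22 positive. Genes without the element thus had the larger median here, and the difference was not tested. Without saline replicate 1 the medians were 0.067 with and 0.15 without the element. Over all tested genes with a promoter the medians were 0.032 with TCACGTG and -0.013 without it.

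Among the proteases, the aspartic protease gene Ctsd and the cysteine protease gene Ctsl had the largest shifts toward higher values after LDL, and neither passed over all features. Levels are log2 signals after subtraction of each array's 75th percentile, in the order of replicates 1, 2 and 3. Ctsd, whose product cathepsin D degrades proteins at the lowest pH, had 3.41, 3.64 and 3.43 with saline and 4.10, 3.80 and 3.88 with LDL. All 3 LDL arrays lay above all 3 saline arrays. This was a 1.35-fold difference, or 0.43 on the log2 scale, with an SE of 0.12 and a 95% interval of 0.14 to 0.72 (adjusted p = 0.494). All 95% intervals given here are per gene and not adjusted over all features. Several are for genes picked by a small p. A second, dimmer Ctsd probe had a difference of 0.48, but its groups overlapped, with 0.38, 1.35 and 0.96 against 1.50, 1.24 and 1.37. Ctsl, which encodes an endopeptidase of broad specificity, had 3.63, 3.55 and 3.44 with saline, against 4.05, 3.86 and 3.78 with LDL. The groups did not overlap, and the log2 fold change was 0.35 (adjusted p = 0.533), with 0.087 to 0.62 as its 95% interval.

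The groups were also apart for Ctsf and Tpp1. Ctsf, another cysteine cathepsin, had -1.05, -0.66 and -0.91 with saline and -0.49, -0.50 and -0.64 with LDL, a log2 fold change of 0.33 (adjusted p = 0.639). The highest saline and the lowest LDL array nearly met. Tpp1, the tripeptidyl peptidase whose loss causes a neuronal ceroid lipofuscinosis, had 1.13, 0.91 and 0.86 with saline and 1.39, 1.20 and 1.20 with LDL, a log2 fold change of 0.29 (adjusted p = 0.642).

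Ctsc and Lgmn, both of which take part in activating other proteases, lay on the other side. Ctsc, the dipeptidyl peptidase that matures granule serine proteases, had 2.13, 2.39 and 2.24 with saline and 1.99, 2.10 and 2.12 with LDL. Its LDL arrays were all below its saline arrays, with a log2 fold change of -0.19 (adjusted p = 0.778) and -0.44 to 0.070 as its 95% interval. Lgmn, the asparaginyl endopeptidase legumain, had 2.64, 3.03 and 2.75 against 2.55, 2.66 and 2.85, and the groups overlapped (log2 fold change -0.12, adjusted p = 0.898). The remaining 5 proteases, Ctsz, Ctsa, Ctso, Ctsb and Ctsh, overlapped between groups, with log2 fold changes of 0.27, 0.094, 0.069, 0.047 and -0.022. For Ctsa, the protective protein of the neuraminidase complex, the dimmer of its 2 probes had a difference of -0.11, opposite in sign to the brighter one. Over the 11 proteases 8 values were positive and the median was 0.094. This median was 0.046 when saline replicate 3 was left out, 0.054 when LDL replicate 1 was, and 0.22 when LDL replicate 3 was.

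**Figure D2:**
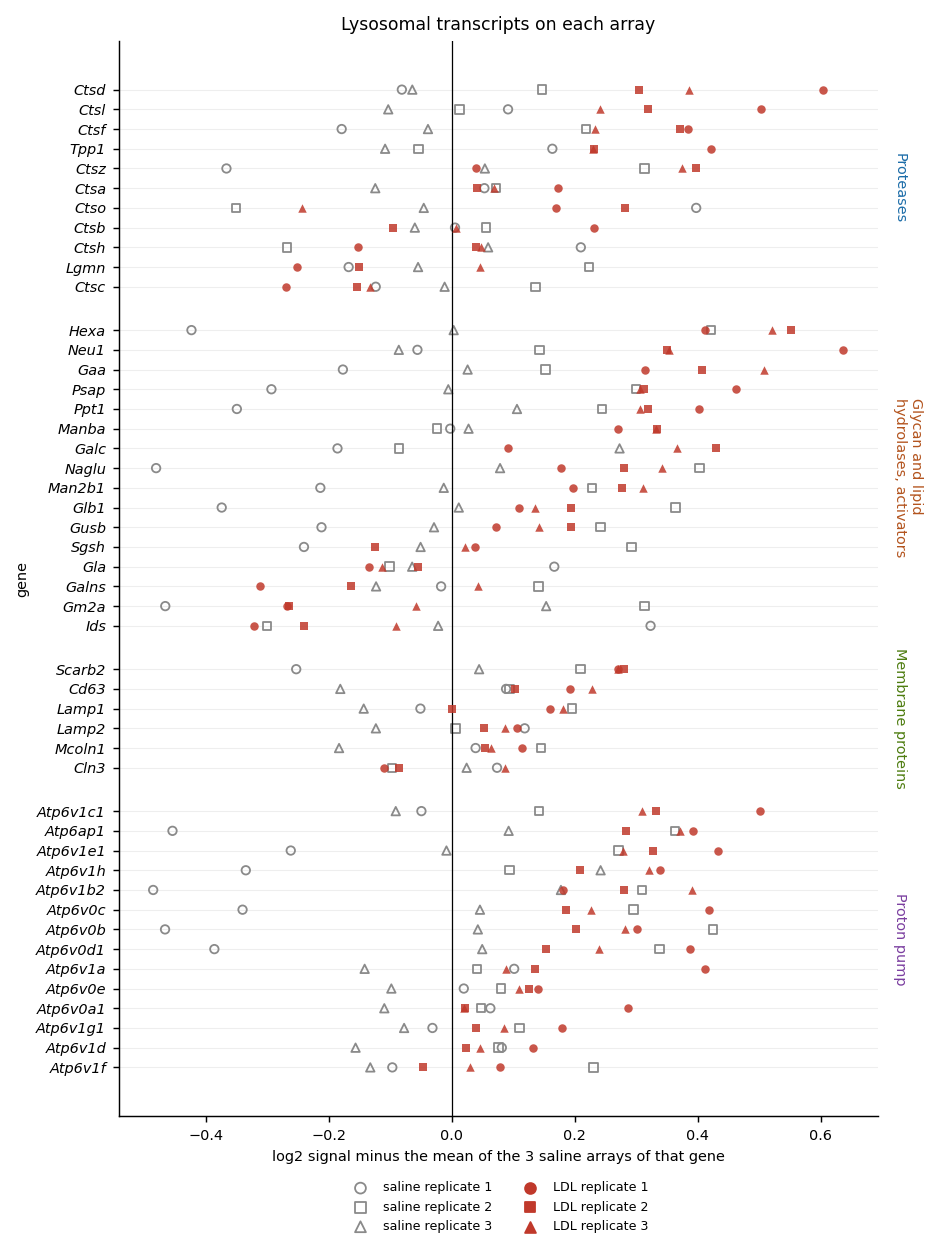
Log2 signal of the 47 genes on each of the 6 arrays, as the difference from the mean of the 3 saline arrays of the gene (horizontal axis), with open symbols for saline, filled red symbols for LDL and the shape giving the replicate. Saline replicate 1 (open circle) is the lowest of the 6 arrays for 22 genes, among them Naglu and Atp6v0b.

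Among the 16 glycan and lipid hydrolases and activators, 11 had positive values, the median log2 fold change was 0.26, and none passed over all features. Neu1 encodes the sialidase that removes terminal sialic acids and is held in a complex with the Ctsa product. It had 1.38, 1.58 and 1.35 with saline and 2.07, 1.79 and 1.79 with LDL, with no overlap. Neu1 was 1.36-fold higher on average, or 0.45 on the log2 scale, with an SE of 0.12 and 0.15 to 0.74 as its 95% interval (adjusted p = 0.494). Manba, the beta-mannosidase, was the steadiest of the group. Its values were -0.82, -0.84 and -0.79 with saline and -0.54, -0.48 and -0.48 with LDL, with SDs of 0.026 and 0.036. The log2 fold change of 0.31 (adjusted p = 0.494) stayed between 0.30 and 0.33 with each array left out in turn.

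Gaa, the acid alpha-glucosidase that degrades glycogen, had 3.91, 4.24 and 4.11 with saline, against 4.40, 4.50 and 4.60 with LDL. The groups did not overlap (log2 fold change 0.41, adjusted p = 0.51), but they did for its dimmer probe, with a difference of 0.17. Hexa, a subunit of the beta-hexosaminidase that degrades ganglioside GM2, had 2.37, 3.21 and 2.79 with saline and 3.20, 3.34 and 3.31 with LDL. Hexa had the largest log2 fold change of the 47 genes, 0.49 (adjusted p = 0.67) and 0.0022 to 0.99 as its 95% interval, with an overlap of saline replicate 2 and LDL replicate 1 and with the low saline replicate 1 widening the saline spread. Without saline replicate 1 the value of Hexa was 0.28.

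Psap, which encodes the precursor of the saposins that present sphingolipids to their hydrolases, had 4.20, 4.79 and 4.48 with saline, against 4.95, 4.80 and 4.80 with LDL. The groups did not overlap, although saline replicate 2 came close to the LDL arrays, and the log2 fold change was 0.36 (adjusted p = 0.697) and 0.21 without saline replicate 1. Ppt1, a thioesterase that removes palmitate from proteins, also had groups that did not overlap (log2 fold change 0.34, and 0.17 without saline replicate 1). The other activator gene, Gm2a, had -0.68, 0.10 and -0.057 with saline and -0.48, -0.48 and -0.27 with LDL. Its groups overlapped, with a log2 fold change of -0.20 (adjusted p = 0.885). The dimmer Gm2a probe had -1.88, -1.75 and -1.83 against -2.31, -2.56 and -2.53, with all LDL arrays below all saline arrays and a difference of -0.65. The 2 activators thus lay on opposite sides of 0.

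Ids, the iduronate sulfatase of heparan and dermatan sulfate breakdown, had the lowest log2 fold change of the 47 genes. It had 1.28, 0.65 and 0.93 with saline and 0.63, 0.71 and 0.86 with LDL, and the groups overlapped (log2 fold change -0.22, adjusted p = 0.834). Among other enzymes of glycosaminoglycan breakdown, Naglu had 0.27, Sgsh -0.022, Gusb 0.14 and Galns -0.14. The mannosidase gene Man2b1 had 0.26, the galactosidase genes Galc, Glb1 and Gla had 0.30, 0.15 and -0.10, and the groups of these 8 genes overlapped. Their adjusted p ran from 0.742 to 0.986. The dimmer Sgsh probe had a difference of 0.088, opposite in sign to the brighter one. The saline values of Naglu were 0.46, 1.34 and 1.02, against 1.12, 1.22 and 1.28 with LDL, and saline replicate 1 was far below the other 5 arrays. Without that array the log2 fold change was 0.026.

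The 6 membrane proteins had a median log2 fold change of 0.097, close to that of the proteases, with 5 positive and none passing. Scarb2, which encodes the abundant membrane protein LIMP-2, had 0.93, 1.39 and 1.22 with saline, against 1.45, 1.46 and 1.45 with LDL. The LDL arrays had an SD of 0.0057 and lay above every saline array (log2 fold change 0.27, adjusted p = 0.732), and without saline replicate 1 the value was 0.15. The tetraspanin gene Cd63, a marker of late endosomes and secreted vesicles, had 6.33, 6.34 and 6.06 against 6.43, 6.34 and 6.47. Its groups just failed to overlap, with a log2 fold change of 0.17 (adjusted p = 0.803) that was 0.084 without saline replicate 3.

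The 2 major glycoproteins of the lysosome membrane had overlapping groups. Lamp1 had 6.17, 6.41 and 6.08 with saline and 6.38, 6.22 and 6.40 with LDL (log2 fold change 0.11, 95% interval -0.18 to 0.41). Lamp2, which also takes part in chaperone-mediated autophagy, had 3.89, 3.78 and 3.65 against 3.88, 3.83 and 3.86 on its brighter probe (log2 fold change 0.082, 95% interval -0.16 to 0.32). The dimmer Lamp2 probe, matched to another transcript, had 0.90, 1.41 and 1.30 against 1.72, 1.60 and 1.66. There all LDL arrays lay above all saline arrays, with a difference of 0.46, and the probes therefore disagree in size.

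Mcoln1, the calcium channel TRPML1 of the lysosome membrane, had 2.86, 2.97 and 2.64 with saline and 2.93, 2.87 and 2.88 with LDL (log2 fold change 0.077, adjusted p = 0.922). Cln3, which encodes a lysosomal membrane protein mutated in juvenile neuronal ceroid lipofuscinosis, had 2.49, 2.32 and 2.44 against 2.30, 2.33 and 2.50 (log2 fold change -0.037, adjusted p = 0.963). Both had groups that overlapped, and all 3 Cln3 probes had negative differences. The dimmest Cln3 probe was well above background on only 2 of the 3 LDL arrays. It had -4.20, -4.01 and -3.56 with saline and -5.04, -3.65 and -3.74 with LDL, so its sign rested on LDL replicate 1. The median of the membrane proteins was 0.18 without saline replicate 2 and 0.030 without saline replicate 3.

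All 14 proton pump genes had positive log2 fold changes, from 0.020 to 0.38 with a median of 0.26, and none passed over all features. The count was 13 of 14 with quantile normalization, alone or after normexp, and with the authors' values, where Atp6v1f turned negative. It was 13 also without saline replicate 1 or LDL replicate 1, and 12 without saline replicate 3. The 14 genes were listed with earlier results known. Of 7 other measured pump genes, given below, 3 had positive and 4 had negative values. The 8 subunits of the V1 part had a median of 0.25 and the 5 of the V0 part 0.26. Atp6v1c1, the C subunit that couples V1 to V0, had 1.26, 1.45 and 1.22 with saline and 1.81, 1.64 and 1.62 with LDL. All its LDL arrays lay above its saline arrays, a 1.30-fold difference. On the log2 scale this was 0.38, with an SE of 0.11 and 0.12 to 0.65 as its 95% interval (adjusted p = 0.508). With each array left out in turn it stayed between 0.32 and 0.45.

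Atp6v1e1, a subunit of the peripheral stalk, had 2.92, 3.45 and 3.17 with saline and 3.62, 3.51 and 3.46 with LDL (log2 fold change 0.35, adjusted p = 0.674). Its groups were apart by a narrow margin between saline replicate 2 and LDL replicate 3. Atp6v1a, the catalytic subunit, had 3.17, 3.11 and 2.93 against 3.48, 3.20 and 3.16 (log2 fold change 0.21, adjusted p = 0.785), and a second probe had a difference of 0.14. Its groups overlapped. Atp6v1h, the regulatory H subunit, had 0.46, 0.89 and 1.04 against 1.13, 1.00 and 1.12 (log2 fold change 0.29, adjusted p = 0.773), with saline replicate 1 far below the other 5 arrays.

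The accessory subunit gene Atp6ap1 had the same order of arrays on both of its probes. The brighter probe had 1.29, 2.11 and 1.84 with saline and 2.14, 2.03 and 2.12 with LDL (log2 fold change 0.35, adjusted p = 0.78). The dimmer one had -0.19, 0.66 and 0.43 against 0.89, 0.55 and 0.75, a difference of 0.43. On both, saline replicate 1 was far below the rest and saline replicate 2 lay among the LDL arrays.

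The V0 genes Atp6v0c, Atp6v0d1, Atp6v0b, Atp6v0e and Atp6v0a1 had 0.28, 0.26, 0.26, 0.13 and 0.11, and only Atp6v0e had groups that did not overlap. The other V1 genes Atp6v1b2, Atp6v1g1, Atp6v1d and Atp6v1f had 0.28, 0.10, 0.067 and 0.020, with groups that overlapped. Atp6v1d had 4.39, 4.39 and 4.15 with saline and 4.44, 4.33 and 4.36 with LDL. Atp6v1f had 5.52, 5.85 and 5.49 against 5.70, 5.57 and 5.65, so that these 2 subunits showed little separation. For Atp6v0b the saline values of 1.41, 2.30 and 1.92 spread more widely than the LDL values of 2.18, 2.08 and 2.16, and its log2 fold change was 0.028 without saline replicate 1. Without that array Atp6v0c had 0.11, Atp6v0d1 0.067 and Atp6v1b2 0.041, and Atp6v0a1 had 0.021 without LDL replicate 1. For the pump as a group the median was 0.11 without saline replicate 1.

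**Figure D3:**
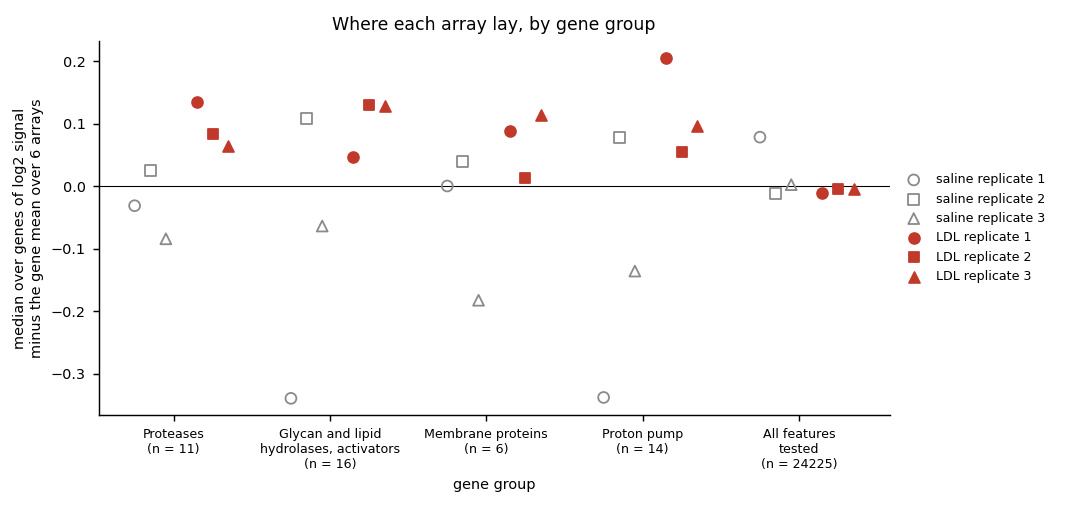
Median over the genes of each group of the log2 signal minus the mean of the gene over all 6 arrays (vertical axis), for each array and gene group and for all features tested, with open symbols for saline and filled red for LDL. Saline replicate 1 is at -0.34 for the hydrolases and for the pump and at 0.079 for all features, while the LDL arrays of these gene groups are between 0.047 and 0.21.

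The arrays did not contribute evenly to these differences. Saline replicate 1 was the lowest array for 22 of the 47 genes (46.8%), against 19.6% of all features, and the highest for 5 (10.6%, against 35.9%). The medians of that array relative to the gene means were -0.34 each for the hydrolases and the pump, -0.031 for the proteases and 0.00051 for the membrane proteins. It was the lowest array for 11 of 16 hydrolases and activators, 7 of 14 pump genes, 3 of 11 proteases and 1 of 6 membrane proteins. Saline replicate 3 was the lowest array for another 15 genes (31.9%, against 15.9%), 7 of them pump genes and 4 membrane proteins. Saline replicate 2 was the highest of all arrays for 12 genes (25.5%), near the 23.5% of all features. LDL replicate 1 was the highest for 20 genes (42.6%, against 14.9%), 11 of them pump genes. The spread among saline arrays exceeded that among LDL arrays for 38 of the 47 genes, with median SDs of 0.20 and 0.088, as it did for 75.7% of all features. On saline replicate 1 66.5% of probes were well above background, and the part of any property of that array in these values was not tested.

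**Figure D4:**
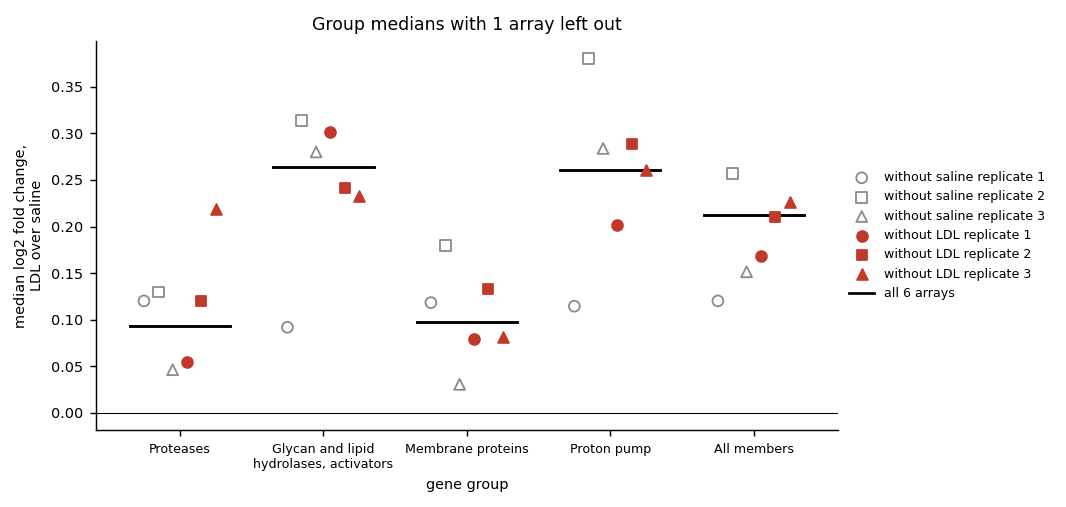
Median log2 fold change of each gene group and of all 47 genes (vertical axis) with all 6 arrays (line) and with 1 array left out (symbols, open for a saline and filled for an LDL array). Every median stays above 0, and those of the hydrolases and the pump are lowest, at 0.092 and 0.11, without saline replicate 1.

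By position on the slide, the first row held replicates 1 and 2 of both groups and the second row replicate 3 of both. In the first row the medians were 0.20 for proteases, 0.25 for hydrolases, 0.012 for membrane proteins and 0.28 for the pump. In the second row, with 1 array of each group and hence no test, they were 0.19, 0.19, 0.24 and 0.21. The membrane proteins therefore differed most between rows, and all 8 medians were positive. Of the 14 pump genes, 12 had positive values in the first row and 14 in the second. With the row as a block, 0 of the 47 genes passed in limma.

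Other genes of the lysosome were taken from 5 lists of known members of each class. Of 79 such genes 73 were measured, 53 had positive values, the median was 0.11, and none passed over all features, with 9 higher and 1 lower at an unadjusted p below 0.05 (2.96% and 4.5% of all features). Among other soluble hydrolases 20 of 23 were positive, with a median of 0.17. Plbd2, a phospholipase B-like protein, had 1.97, 2.18 and 2.09 against 2.47, 2.43 and 2.44 (log2 fold change 0.37, adjusted p = 0.478), with no overlap, and Arsa, the sulfatase of sulfatide breakdown, had 0.31. Ctss, a cathepsin of microglia and macrophages, was well above background on no array. The acid lipase gene Lipa had 0.16 and the cholesterol exporters Npc1 and Npc2 0.10 and 0.21, with groups that overlapped.

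Other lysosomal membrane proteins had a median of 0.084 with 12 of 18 positive. The genes with the smallest p of these were Laptm4a, Tmem192 and Ostm1, with log2 fold changes of 0.41, 0.30 and 0.30 and groups that did not overlap. The other pump genes, most of them isoforms known from specialised tissues, had a median of -0.031 over 7 measured genes of 11. The accessory subunit gene Atp6ap2 was among them, with -0.061. Atp6v1g3 had -1.75, -2.18 and -1.91 with saline and -2.32, -2.46 and -2.43 with LDL, with all LDL arrays lower (log2 fold change -0.46, adjusted p = 0.511), and Atp6v1g2 had -0.21. Tcirg1, the a3 isoform of V0 found in lysosomes, had 0.33 with groups that overlapped. Atp6v0d2, Atp6v1b1 and Atp6v1c2 were well above background on no array and Atp6v0a4 on 1 saline array.

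Genes for delivery by the mannose 6-phosphate tag had a median of 0.11, with 8 of 9 positive. Igf2r, the large receptor that brings tagged hydrolases to endosomes, had 1.46, 1.00 and 1.09 with saline, against 1.94, 1.60 and 1.51 with LDL. The groups did not overlap, and the log2 fold change was 0.50 (SE 0.17, adjusted p = 0.566). Sort1, an alternative sorting receptor, had 0.19 and Gnptg, a subunit of the enzyme that adds the tag, 0.12.

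The MiT/TFE transcription factors and the proteins that control them at the lysosome had a median of 0.10, with 10 of 16 positive. Flcn, Rragc and Tfe3 had the smallest p of this list, with log2 fold changes of 0.32, 0.31 and 0.19 (adjusted p from 0.674 to 0.763). Flcn and Rragc encode parts of the switch that holds the TFEB family in the cytosol when nutrients are plentiful. Tfeb itself had -2.69, -2.50 and -2.69 with saline and -2.56, -2.55 and -2.39 with LDL (log2 fold change 0.12, adjusted p = 0.85), and Mitf had -0.37 (adjusted p = 0.79), both with groups that overlapped.

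**Figure D5:**
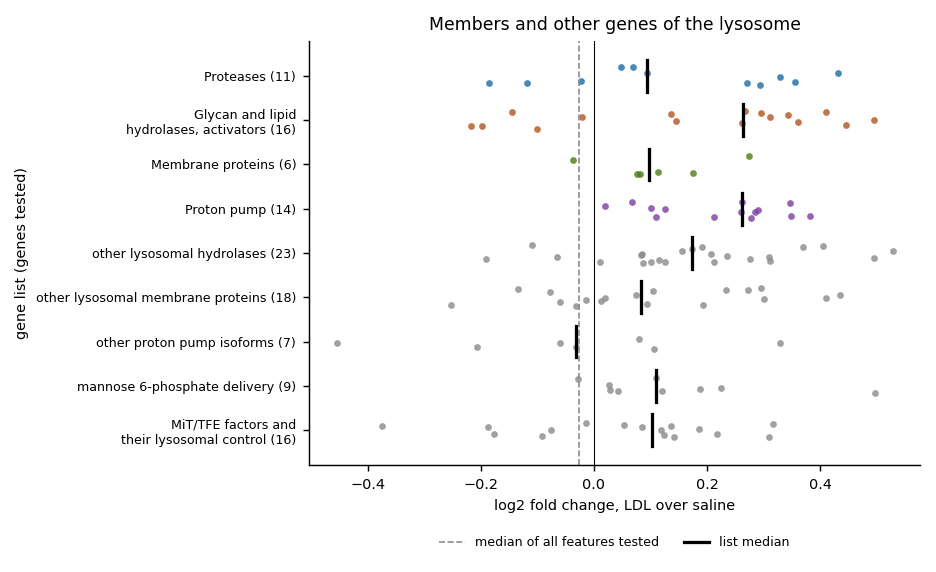
Log2 fold change, LDL over saline, of each measured gene (points, horizontal axis) in the 4 groups of the 47 genes (coloured) and the 5 lists of other lysosomal genes (grey), with the median of each list as a bar and the median of all features as a dashed line. The medians run from -0.031 for other pump isoforms to 0.26 for the hydrolases and the pump.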

How the data were processed

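RNA of 3 saline and 3 LDL cultures was measured on 6 one-colour Agilent arrays of 1 slide. Per the file headers, the deposited intensity values were background-subtracted and detrended by the scanner software, with no normalization between arrays. Per the submitters' processing notes, limma 3.34.9, R 3.4.4 and Agilent Feature Extraction 10.7.3.1 were among the tools. The authors' table holds log2 values aligned between arrays by a method not given in the sources used here, and served as an alternative.

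The main values are log2 of the processed intensity less the 75th percentile of that array. Control spots were left out, outlier spots only where another spot of the probe remained, and spots of a probe were averaged. A probe was tested if well above background on all 3 arrays of at least 1 group (32993 of 55681 probes). Probes were named through their accession in RefSeq (28331 matched), and the brightest probe stood for a gene. This gave 24225 features, 14931 of them named, fitted with limma 3.58.1 in R 4.3.3 with Benjamini-Hochberg adjustment over them all. An exact permutation test of 3 against 3 arrays cannot go below p = 0.1. The self-test used simulated data. The array files gave no mean signal, so the normexp alternative (offset 50) used the median signal in place of the mean that had been planned. All 57 probes of the 47 genes were free of outlier flags and saturation.

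The 47 genes and all lists were chosen with earlier results of these data known. Values on every array are given, per gene group, for up to 5 genes with the smallest p and the lowest 2 log2 fold changes, and for others where single arrays or probes stood apart, chosen after their values were seen. In the other lists up to 3 genes with the smallest p are named, and Lipa, Npc1, Npc2, Tfeb and Mitf for their known roles. Some genes of these lists are not reported here by name.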

Additional observations from a re-analysis of the deposited data

How the results depend on the processing

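None of the 47 genes passed in any of the 18 settings with a test, with a smallest adjusted p of 0.297, and 34 genes kept their sign in every setting. The 29 features called over the whole array became 0 with no background filter (1773 at an unadjusted p below 0.05), 3 with a replicate block, 14 with the slide row as a block, 0 in slide row 1 alone (862 at an unadjusted p below 0.05) and 55 with trended robust variances. With 1 array left out the count ran from 0 to 29, and limma called 0 when saline replicate 3 was left out (1554 at an unadjusted p below 0.05), 0 when LDL replicate 2 was (991 likewise), 0 when LDL replicate 3 was (1375 likewise), 3 without saline replicate 2 and 16 without LDL replicate 1. Same-numbered saline and LDL cultures had deviations correlated at 0.21, -0.043 and 0.18. Pairs with different numbers had correlations from -0.23 to 0.081. These values do not settle whether the cultures were paired, and the main fit did not use pairing. The replicate block left the calls among the 47 at 0 and took those over all features from 29 to 3. Among the genes named outside the 47, Fdps passed in 12, Hmgcs1 in 11, Insig1 in 11 and Gfap in 8 of 18 settings.

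The protease median of 0.094 was 0.20 in row 1, 0.19 in row 2 and 0.046 to 0.22 with 1 array left out. The membrane median was 0.24 in row 2, and the hydrolase median was 0.092 to 0.31 with 1 array left out. No scaling moved the median of all features by more than 0.039. The cause of sign changes was not tested. In 13 genes, with main values from -0.14 for Galns to 0.15 for Glb1, the sign changed in some setting. With normexp these were Atp6v1f (-0.040), Ctsh (0.0057) and Gla (0.0030), with quantile normalization Atp6v1f (-0.0028) and Ctsh (0.0045), and with the authors' values Atp6v1f (-0.018) and Ctsh (0.017). With median scaling they were Cln3 (0.0024), Ctsh (0.017) and Sgsh (0.017), and with the mean over probes Ctsa (-0.0059) and Sgsh (0.033). In row 1 they were Atp6v1d (-0.00098), Atp6v1f (-0.051) and Mcoln1 (-0.0086), and in row 2 Cln3 (0.063), Ctso (-0.20), Galns (0.17), Lgmn (0.10) and Sgsh (0.073). With 1 array left out the ranges were -0.012 to 0.11 for Atp6v1d, -0.046 to 0.14 for Atp6v1f, -0.098 to 0.00043 for Cln3, -0.045 to 0.12 for Ctsb, -0.16 to 0.082 for Ctsh, -0.11 to 0.27 for Ctso, -0.042 to 0.33 for Glb1, -0.015 to 0.15 for Mcoln1 and -0.14 to 0.12 for Sgsh.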
